A study of Mus musculus with 4 samples.

Results

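Stromal cells of the large intestine from Rag2 knockout mice were compared with those of wild-type mice of the same strain, BALB/c. Each side is 1 RNA sequencing library, and each value is the FPKM of a gene (fragments per kilobase, relative to the library's total) as the authors deposited it. Of 23284 gene rows, 780 rows of small RNAs were left out, and 12274 genes that reached 1 FPKM on either side were compared by the difference in log2(FPKM + 1), Rag2 knockout minus wild type. "Higher" and "lower" in counts mean at least 2-fold apart on that scale. With 1 library per side there is no replicate error, so no difference below has been tested, and each describes these libraries only. Per the labels, the cells of every library came from whole colon. They were sorted alive (negative for 7AAD) as podoplanin-positive cells that lacked CD45, CD31 and EpCAM, the surface proteins of leukocytes, endothelium and epithelium. The other 2 libraries of the study come from C57BL/6J mice, a wild type and an IL-10 knockout. They share no mouse strain with this comparison and are given as side values. Each wild-type library is called the control of its strain. The labels used here give neither the Rag2 allele, the BALB/c substrain, the age or sex of the mice, nor how many animals a library holds. The study's title asks how IL-10 signalling in fibroblasts limits pathology of the large intestine through type I interferon.

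Rag2 and Rag1 form the recombinase that cuts and joins antigen receptor genes in developing lymphocytes. Without it no mature B or T cells form, whereas innate lymphoid cells and natural killer (NK) cells, which need no rearranged receptor, still develop. Podoplanin-positive stroma of the colon is mostly fibroblasts, which build the matrix, supply growth signals to the crypts, and respond to cytokines such as interferons, IL-1 and tumour necrosis factor.

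The labels were first checked against the transcripts. Rag2 (chr2:101624712-101632528, GRCm38/mm10) was listed at 0 in 3 libraries, the BALB/c control and the C57BL/6J pair. The library labelled Rag2 knockout had 0.712 FPKM, or about 22 fragments on its longest transcript of 3424 nt. The whole-gene value cannot show which part of Rag2 the fragments came from, and a wild-type level of 0 leaves this gene no check of the label. Rag1 was listed at 0 in the same 3 libraries and at 0.0319 FPKM in the knockout. Strain could be checked. H2-Ea, a class II gene known to be inactive in C57BL/6, had 191 FPKM in the control and 285 FPKM in the knockout and was listed at 0 in both C57BL/6J libraries. Ifi202b, also known to be missing from C57BL/6 transcripts, had 20.2 and 59.3 FPKM and was listed at 0 in both C57BL/6J libraries. Y-linked Ddx3y had 36.2 FPKM in the control and 31.5 FPKM in the knockout, while Xist, which silences an X chromosome in females, had 0.0509 and 0.105 FPKM. The C57BL/6J pair differed in these genes, with Ddx3y at 16.95 FPKM in the control and 0.0269 FPKM in the IL-10 knockout, and Xist at 23.02 and 44.87 FPKM, so sex is not matched in that pair.

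The sort marker and the fibroblast genes were abundant on both sides. Pdpn, which encodes podoplanin (chr4:143267409-143299564), had 189.6 FPKM in the BALB/c control, 292.5 FPKM in its Rag2 knockout, 158 FPKM in the C57BL/6J control and 204.1 FPKM in its IL-10 knockout. Of 21 fibroblast genes, 20 lay within 2-fold, among them the collagen genes Col1a1 (773 and 788 FPKM) and Col1a2 (988 and 975 FPKM). The exception was S100a4, a calcium-binding protein also made by leukocytes, with 78.2 FPKM in the control and 159 FPKM in the knockout, and it too lay within 2-fold under equal-sum or upper-quartile scaling. Transcripts of cells that the gate leaves out were present at lower levels. Ptprc (CD45) had 8.31 FPKM in the control and 11.5 FPKM in the knockout, and Pecam1 (CD31) had 13.3 and 13.2 FPKM. Epcam differed more, at 2.76 and 9.35 FPKM. The wild-type library held about 9770000 fragments and the knockout about 9470000, as estimated from the steps between low FPKM values. At that depth an FPKM of 1 on a transcript of 2000 nt is about 17 fragments, with a 95% counting interval of 0.97 on either side for the log2 ratio of a pair. At 5 FPKM (about 86 fragments) the interval is 0.43 on either side, and at 50 FPKM (about 862 fragments) it is 0.14.

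More genes were higher in the Rag2 knockout than lower. Of the 12274 genes, 525 (4.28%) were higher and 225 (1.83%) were lower, and 11524 lay within 2-fold. The median log2 difference was -0.004, and the 5th to 95th percentiles ran from -0.70 to 0.91. At a 4-fold threshold 134 genes (1.09%) were higher and 15 (0.122%) lower. This split moved with the settings of scale, filter and pseudocount. Small RNA rows held 13.8% of the wild-type FPKM sum and 9.18% of that of the knockout. When each library was scaled to an equal FPKM sum without them, the median of all genes moved by -0.14, and 659 genes were higher and 634 lower. The share of higher genes among those apart was then 51.0%, against 70.0% as deposited. Abundant genes were more often on the higher side: among genes that reached 50 FPKM, 122 of 1462 (8.34%) were higher and 21 (1.44%) lower. Of the 525 higher genes, 506 also exceeded C57BL/6J wild type, and 206 of the 225 lower genes were also below it. The wild types of both strains were 2-fold apart in only 3.70% of genes, so this mostly follows from the selection. It is no separate check of the calls.

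**Figure D1:**
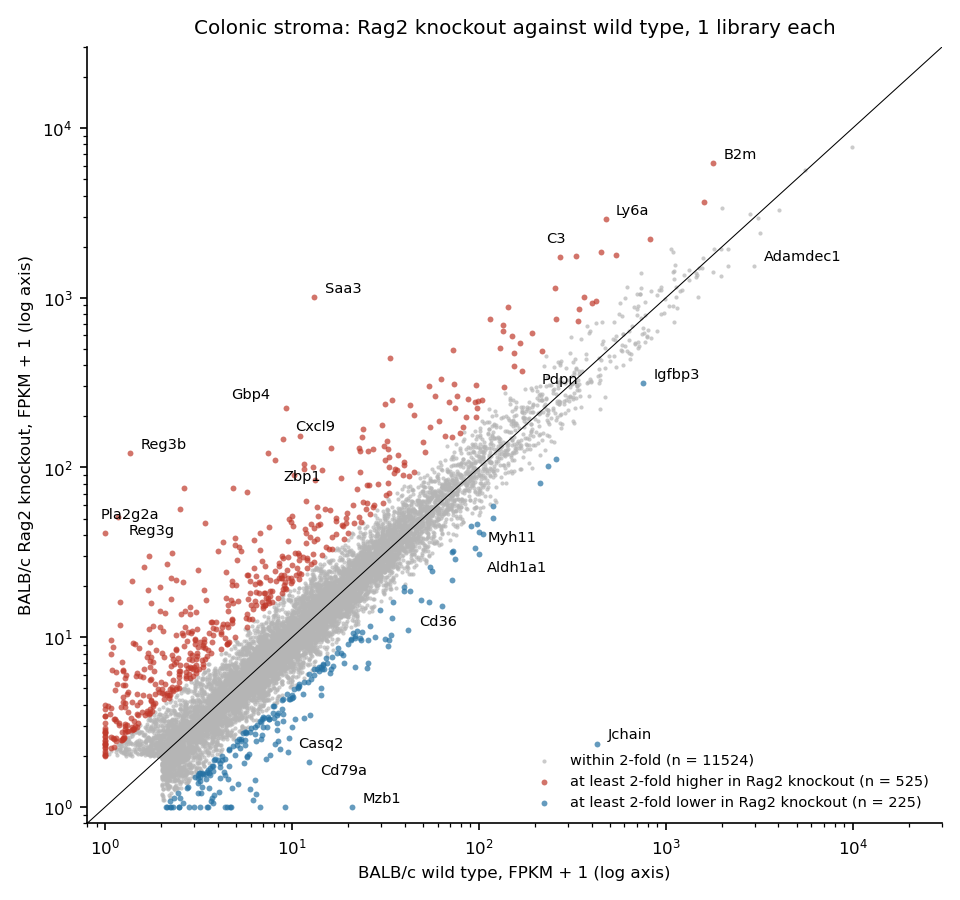
Each point is 1 of the 12274 compared genes, with FPKM + 1 in BALB/c wild type on the horizontal axis and in the Rag2 knockout on the vertical axis, both on a log scale. The 525 genes at least 2-fold higher in the knockout are red, the 225 at least 2-fold lower are blue, and Jchain and Saa3 lie far from the diagonal.

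B cell transcripts and part of the plasma cell transcripts were lower in the Rag2 knockout. Of 10 compared plasma cell genes 4 were lower and none higher, with a median of -0.76. Jchain, the joining chain of polymeric antibodies (chr5:88519809-88527897, listed as Igj), had 428 FPKM in the BALB/c control, 1.36 FPKM in its Rag2 knockout, 237 FPKM in the C57BL/6J control and 395 FPKM in its IL-10 knockout. It stands alone as the lowest of the 4 and had the lowest log2 difference of all named genes, -7.50, with about 5070 fragments against 16. Mzb1, a chaperone of antibody secretion, was listed at 0 in the knockout against 19.96 FPKM in the control. Pou2af1, a coactivator of B cell transcription, had 8.12 FPKM and was also listed at 0. The other 6 of the plasma cell list lay within 2-fold, among them Prdm1 (10.2 and 8.19 FPKM), Fkbp11 (3.23 and 4.88 FPKM) and Creld2 (31.6 and 52.4 FPKM). Of 23 compared B cell genes, 18 were lower and none higher, with a median of -1.76 beside -0.004 over all genes. Cd79a, which carries signals from the B cell receptor, went from 11.4 FPKM to 0.829 FPKM, beside 4.598 FPKM and 25.9 FPKM in the C57BL/6J pair. Cd79b (5.16 and 0.104 FPKM), its partner chain, differed in the same direction. The B cell and epithelial transcription factor Spib did not follow, at 2.25 and 2.28 FPKM. In bulk RNA, fewer cells of a type and less RNA per cell cannot be told apart.

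T cell genes were lower in part. Of 15 compared, 7 were lower and none higher (median -0.92), and another 11 of the 26 found were under 1 FPKM on both sides. Cd2, an adhesion receptor of T and NK cells, had 5.36 FPKM in the BALB/c control, 0.441 FPKM in its Rag2 knockout, 2.32 FPKM in the C57BL/6J control and 26.7 FPKM in its IL-10 knockout. Cd3g, a chain of the T cell receptor complex, was listed at 0 in the knockout against 2.21 FPKM in the control. Ctla4, a brake on T cell activation, had 3.37 and 0.538 FPKM, and Lat, an adaptor of receptor signalling, had 2.15 and 0.201 FPKM. Cd3e, another chain of the same complex, had 1.22 and 1.26 FPKM, and the kinase gene Zap70 had 1.17 and 1.05 FPKM. The values of this list rest on few fragments: about 51 in the control and 4 in the knockout for Cd2, 18 and 0 for Cd3g, 22 and 2 for Lat, and 15 and 15 for Cd3e. The GIMAP genes, small GTPases of lymphocytes, followed the lymphocyte genes: 3 of 6 were lower and none higher (median -0.94), with Gimap6 at 15.1 FPKM in the control and 5.51 FPKM in the knockout.

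Innate lymphoid and NK cell genes were higher in part. Of 16 compared, 7 were higher, none lower and 9 within 2-fold, with a median of 0.67 and 4 of them below 0. Il22, a cytokine of group 3 innate lymphoid cells that acts on epithelium (chr10:118204584-118210047), had 0.798 FPKM in the BALB/c control, 10.7 FPKM in its Rag2 knockout, 1.43 FPKM in the C57BL/6J control and 15.3 FPKM in its IL-10 knockout. Both knockouts thus stood above both wild types. Ifng, which encodes interferon gamma, had 0.301, 3.61, 0.114 and 11.7 FPKM in the same order. The granule protease Gzma went from 1.65 FPKM to 7.85 FPKM, and the NK receptor Ncr1 from 0.0799 FPKM to 1.23 FPKM. Il13 and Il5, cytokines of group 2 cells, had 5.89 and 3.58 FPKM in the knockout against 1.71 and 1.21 FPKM in the control, and for both the Rag2 knockout was the highest of the 4 libraries. Rora, a transcription factor of innate lymphoid cells and of stroma, had 28.4 and 20.1 FPKM. The others below 0 were Klrd1 (1.22 and 0.470 FPKM), Il7r (2.04 and 1.545 FPKM) and Xcl1 (6.14 and 5.26 FPKM). These values too rest on few fragments, about 7 in the control and 94 in the knockout for Il22, 3 and 35 for Ifng, and 11 and 52 for Gzma. In the BALB/c pair, Il22, Ifng and Ncr1 reached 1 FPKM only in the knockout, which is how they passed the filter.

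**Figure D2:**
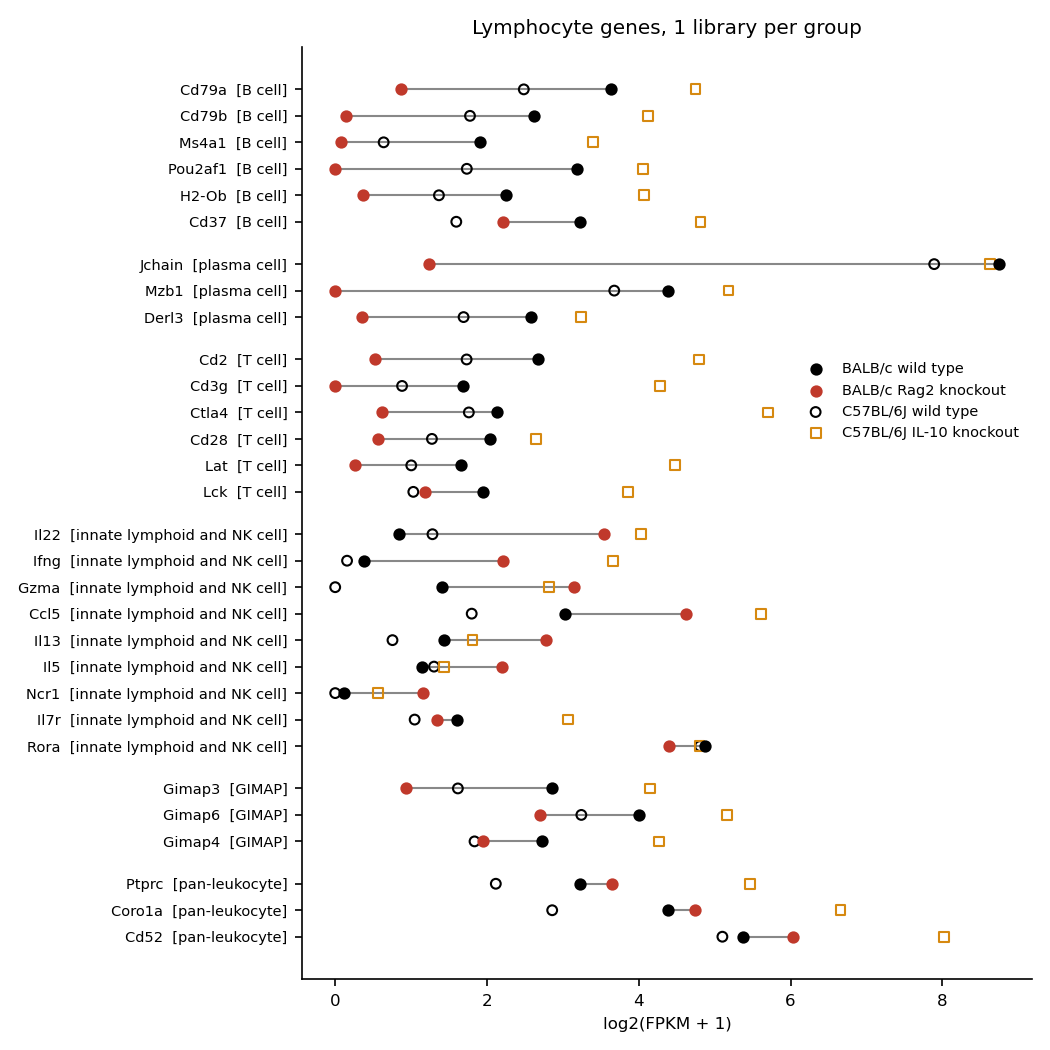
Each row is a gene, with its list in brackets, and each symbol is its log2(FPKM + 1) in 1 of the 4 libraries; the grey line joins the BALB/c libraries. B, plasma and T cell genes have their lowest value in the Rag2 knockout (red), except Cd37 and Lck, and Il22, Ifng and Gzma lie above BALB/c wild type (black).

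Other leukocyte transcripts were not lower. None of 12 pan-leukocyte genes was 2-fold apart (median 0.41, summed FPKM 137 and 198), and 11 of 12 lay above 0. Of 13 neutrophil genes found, 9 were compared and all 9 were higher (median 1.99). The summed FPKM of all 13 was 29.1 and 289. Cxcr2, Il1f9, Csf3r and Clec4d reached 1 FPKM only in the knockout, so the filter itself favoured a count of higher genes. S100a8 and S100a9, the subunits of calprotectin, had 3.81 and 6.45 FPKM in the control, 75.1 and 121 FPKM in its knockout, and 1624 and 1833 FPKM in the IL-10 knockout. Genes of neutrophil precursors stayed near 0, with Ngp at 0.210 and 0.216 FPKM and Camp at 0.256 and 0.264 FPKM. Like Ltf and Mmp8 of the same list, they were under 1 FPKM on both sides and are not among the 9. Of 22 macrophage and monocyte genes, 9 were higher and none lower (median 0.64, summed FPKM 417 and 857). Cd14, a receptor for bacterial lipopolysaccharide, went from 31.7 FPKM to 128 FPKM, and Itgam, an integrin of myeloid cells, from 2.22 FPKM to 8.37 FPKM. The resident macrophage genes Mrc1 (4.51 and 4.70 FPKM) and Cd163 (1.41 and 0.883 FPKM) lay within 2-fold. Of 6 mast cell genes only Hdc, the enzyme that makes histamine, was higher, at 1.25 and 15.7 FPKM, and Ms4a2 was listed at 0 on both sides.

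Epithelial transcripts were higher. Of 22 compared, 18 were higher and none lower (median 1.64), and their summed FPKM was 95.6 and 342 in the BALB/c pair and 202 and 1080 in the C57BL/6J pair. Agr2, a protein disulfide isomerase of goblet cells, had 1.27 FPKM in the BALB/c control, 30.3 FPKM in its Rag2 knockout, 11.0 FPKM in the C57BL/6J control and 122 FPKM in its IL-10 knockout. Tff3, a goblet cell peptide, went from 1.60 FPKM to 20.2 FPKM and the keratin gene Krt19 from 5.76 FPKM to 31.6 FPKM. The other 4 of the list lay within 2-fold, among them Car1 (16.2 and 12.6 FPKM) and Guca2a (5.98 and 3.52 FPKM). Krt20 (1.28 and 6.885 FPKM) and Lypd8 (14.05 and 55.7 FPKM) were among the higher genes. The wild-type library is the lowest of the 4 for this sum, and the part of epithelial RNA in the results below was not tested.

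Interferon-induced GTPases were higher in the Rag2 knockout. The guanylate-binding proteins (GBPs) and the immunity-related GTPases (IRGs) are induced by interferon gamma and by type I interferons and attack the vacuoles of intracellular microbes. All 11 GBP genes were higher, with a median of 2.87. Gbp4 (chr5:105115767-105139586) had 8.22 FPKM in the BALB/c control, 224 FPKM in its Rag2 knockout, 2.25 FPKM in the C57BL/6J control and 28.6 FPKM in its IL-10 knockout, and the Rag2 knockout was far above the other 3. Gbp2 had 53.3, 303, 29.4 and 312 FPKM in the same order, so that the 2 knockouts had similar levels. Gbp2b (listed as Gbp1) and Gbp10 were nearly silent in C57BL/6J, at 0.131 and 0.0344 FPKM in its control, and reached 249.1 and 31.3 FPKM in the Rag2 knockout. Of 10 compared IRG genes 9 were higher (median 2.03). Iigp1 went from 71.4 FPKM to 492 FPKM and Igtp from 29.3 FPKM to 177 FPKM. Reads of near-identical members such as Tgtp1 and Tgtp2 can be split between copies, so single values in these families are uncertain.

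Promoter windows were at hand for 5 of 11 GBP and 7 of 10 IRG genes, Gbp4 and Iigp1 not among them. Interferon-stimulated response elements (ISREs), promoter motifs of interferon-induced genes, were searched as GAAANNGAAA on both strands, from 250 bases before to 50 after the start, in RefSeq GRCm38.p6. Of the 32851 windows of the whole table, 3.44% held a match. Among the 2 GTPase families, 5 of 5 GBP genes and 7 of 7 IRG genes with a window held one. The stretches are shown because all of these windows share the motif; each is a stretch of 50 bases upstream of a start, 5′ to 3′ on the gene's strand, with 1 match in capitals (Gbp3, Irgm1 and Gm12250 hold 2). In 9930111J21Rik1 the match lies after the start and is not shown.
Gbp2, chr3:142620584-142620633, plus strand: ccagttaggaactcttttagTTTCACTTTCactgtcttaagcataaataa
Gbp2b, chr3:142594690-142594739, plus strand: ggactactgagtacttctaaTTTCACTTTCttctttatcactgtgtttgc
Gbp3, chr3:142559979-142560028, plus strand: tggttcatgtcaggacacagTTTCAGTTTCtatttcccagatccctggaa
Gbp5, chr3:142496749-142496798, plus strand: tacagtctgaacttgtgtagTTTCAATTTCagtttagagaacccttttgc
Gbp7, chr3:142530263-142530312, plus strand: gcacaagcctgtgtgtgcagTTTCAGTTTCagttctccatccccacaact
Igtp, chr11:58199502-58199551, plus strand: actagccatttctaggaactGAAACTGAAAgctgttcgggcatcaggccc
Irgm2, chr11:58214893-58214942, plus strand: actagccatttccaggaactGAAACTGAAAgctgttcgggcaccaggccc
Irgm1, chr11:48871421-48871470, minus strand: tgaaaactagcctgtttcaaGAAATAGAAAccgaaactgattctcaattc
Gm12250, chr11:58183732-58183781, plus strand: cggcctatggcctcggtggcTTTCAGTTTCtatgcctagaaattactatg
Tgtp1, chr11:48992294-48992343, minus strand: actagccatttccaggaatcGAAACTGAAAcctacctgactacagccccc
Tgtp2, chr11:49064253-49064302, minus strand: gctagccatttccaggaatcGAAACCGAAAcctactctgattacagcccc
Igtp and Irgm2, and likewise Tgtp1 and Tgtp2, have closely similar stretches around the match. TTTCNNTTTC is the same motif on the other strand. A match is a description of letters and not evidence of binding.

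The difference between libraries went with these letters over all genes as well. Of the 390 higher genes with a window, 15.6% held an ISRE match, against 3.20% of 9181 genes within 2-fold and 3.61% of 166 lower genes. Among the 90 genes at least 4-fold higher the share was 23.3%. The gamma-activated site, searched as TTCNNNGAA, was found in 14.4% of higher genes, 7.83% of lower genes and 8.16% of genes within 2-fold (8.30% of all windows). A kappaB site, GGGNNTTTCC, was found in 5.90%, 1.81% and 1.84% in the same order (1.63% of all windows). A kappaB and an ISRE match can overlap by their TTTC letters. The 3 motifs were counted on both strands.

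**Figure D3:**
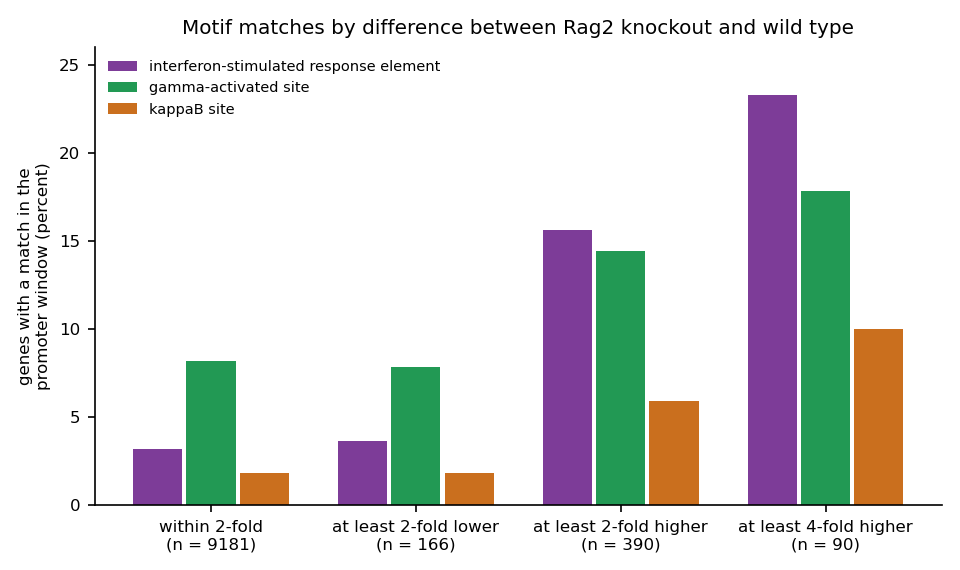
Bars give the percent of genes whose promoter window holds an interferon-stimulated response element, a gamma-activated site or a kappaB site, for genes grouped by the difference between Rag2 knockout and wild type. The share with an interferon-stimulated response element is 3.20% in genes within 2-fold, 3.61% in lower, 15.6% in higher and 23.3% in genes at least 4-fold higher.

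Nucleic acid sensors and other interferon-stimulated genes were higher too. Of 45 compared genes of the type I interferon list, 28 were higher and none lower (median 1.33), and of 19 sensors 9 were higher (median 0.99). Zbp1, a sensor of Z-form nucleic acid that can trigger necroptosis (chr2:173206612-173218959), had 7.14 FPKM in the BALB/c control, 109 FPKM in its Rag2 knockout, 4.86 FPKM in the C57BL/6J control and 77.6 FPKM in its IL-10 knockout. Ifi27l2a, an interferon-induced mitochondrial protein, went from 450 FPKM to 1858 FPKM and Ifitm3, which blocks viral entry, from 826 FPKM to 2216 FPKM. Oas2, a sensor of double-stranded RNA, went from 0.411 FPKM to 8.26 FPKM. Oas3 had 1.37 FPKM in the knockout against a listed 0. Some members were not higher: Ifi27 had 36.9 and 26.2 FPKM, and the sensor adaptor Mavs 8.13 and 7.82 FPKM.

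The ligands and the pathway between receptor and gene were uneven. Ifng was higher, as given above, while the type I receptor genes Ifnar1 (15.0 and 15.9 FPKM) and Ifnar2 (76.6 and 104 FPKM) and the interferon gamma receptor genes Ifngr1 (62.6 and 78.8 FPKM) and Ifngr2 (11.1 and 13.1 FPKM) lay within 2-fold. Stat2 went from 17.7 FPKM to 44.4 FPKM and the deubiquitinase-like inhibitor Usp18 from 3.14 FPKM to 9.70 FPKM. Irf9, of the interferon regulatory factor family, had 48.7 and 51.2 FPKM. Of 8 interferon regulatory factors only Irf7 was higher (38.8 and 107 FPKM); Irf1 had 697 and 1053 FPKM.

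MHC class I and its peptide supply were higher together. B2m, the light chain of class I (chr2:122147687-122153082), had 1782 FPKM in the BALB/c control, 6239 FPKM in its Rag2 knockout, 1548 FPKM in the C57BL/6J control and 7098 FPKM in its IL-10 knockout, and its gain of 4456 FPKM was the largest of the named genes. Of 19 compared genes of the class I list, which holds the heavy chains and B2m, 15 were higher (median 1.71), with H2-D1 at 542 and 1780 FPKM and H2-K1 at 164 and 540 FPKM. Fragments of the H2 genes can be shared between copies and align differently to the reference genome, which is C57BL/6J, so no difference in their levels is drawn between strains. All 11 dedicated members of the peptide-loading list were higher, and its 3 general chaperones of the endoplasmic reticulum, Calr, Canx and Pdia3, lay within 2-fold. Nlrc5, the transactivator of class I genes (chr8:94434335-94527272), went from 1.40 FPKM to 20.6 FPKM, beside 1.24 and 21.04 FPKM in the C57BL/6J pair. Psmb8 (41.7 and 232 FPKM) and Psmb9 (22.1 and 124 FPKM), subunits of the immunoproteasome, and the peptide transporter Tap1 (24.5 and 125 FPKM) were all above both wild types. The B2m window before the start is shown because this gene had the largest gain; it holds an ISRE and a kappaB match, in capitals:
B2m, chr2:122147437-122147686, plus strand: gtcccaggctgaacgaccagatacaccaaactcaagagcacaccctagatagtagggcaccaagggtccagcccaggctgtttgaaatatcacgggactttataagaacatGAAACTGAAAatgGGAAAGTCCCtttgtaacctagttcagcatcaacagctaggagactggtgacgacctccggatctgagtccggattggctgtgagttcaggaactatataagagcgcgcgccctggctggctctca
The ISRE match begins 139 bases and the kappaB match 126 bases before the start.

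The Qa-2 genes H2-Q6, H2-Q7, H2-Q8 and H2-Q9 have values of their own. H2-Q7 had 0.611 FPKM in the BALB/c control, 24.9 FPKM in its Rag2 knockout, 16.2 FPKM in the C57BL/6J control and 316 FPKM in its IL-10 knockout. H2-Q8 had 0.206, 15.1, 6.68 and 75.1 FPKM in the same order, and H2-Q9 0.254 FPKM, 0, 0 and 13.8 FPKM. H2-Q6 had 15.2 FPKM in the BALB/c control and 129 FPKM in its knockout. Qa-2 is known to differ between BALB/c substrains, and the substrain of each mouse line is not in the labels, so a substrain and the Rag2 genotype cannot be told apart here.

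Of 11 class II genes compared, 2 were higher and 2 lower (median 0.57), beside 4.28% and 1.83% of all genes. H2-Aa had 119 and 177 FPKM and the invariant chain Cd74 390 and 635 FPKM, both within 2-fold, against 112 and 895 FPKM and 191 and 1595 FPKM in the C57BL/6J pair. The higher genes were H2-DMa (16.1 and 47.3 FPKM) and H2-DMb1 (3.35 and 8.91 FPKM), which load peptide. The lower genes were H2-Oa (2.50 and 0.613 FPKM) and H2-Ob (3.75 and 0.293 FPKM), the B cell inhibitor of that loading. Among checkpoint genes Cd274, which encodes PD-L1, went from 8.85 FPKM to 46.7 FPKM. Ido1, which degrades tryptophan, had 2.45 FPKM in the knockout against a listed 0.

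Many of the higher genes sat next to each other. Over the compared genes in genome order, 13 runs of at least 4 neighbours were all higher, holding 71 genes, and 0 runs were all lower. The runs were families of duplicated genes for the most part: the Ifi200 genes on chromosome 1, the Gbp genes on chromosomes 3 and 5, the Slfn genes and a chemokine group on chromosome 11, Serpina3 on chromosome 12, Ly6 on chromosome 15, and class I on chromosome 17. Neighbouring copies share sequence, so a run is fewer independent observations than its genes. The 7 Ifi200 genes were close to each other, from 1.39 to 1.88, while the 6 Gbp genes of chromosome 5 ran from 2.09 to 4.61. Psmb9, Tap1, Psmb8 and Tap2, which are not copies of one another, formed 1 run with H2-DMb1.

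**Figure D4:**
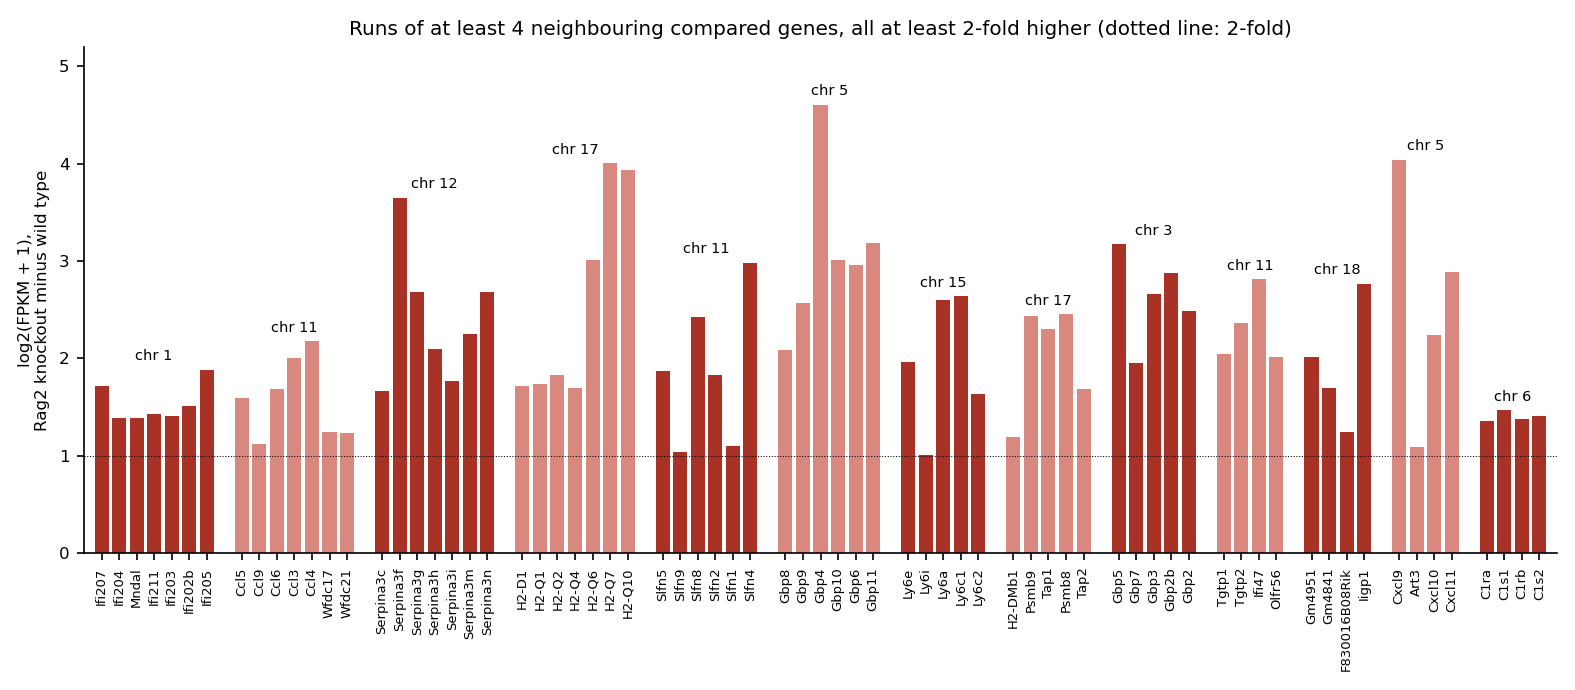
Bars give the difference in log2(FPKM + 1), Rag2 knockout minus wild type, of the 71 genes in 13 runs of at least 4 neighbouring compared genes that were all at least 2-fold higher (dotted line). The chromosome stands above each run, and Gbp4 on chromosome 5 has the tallest bar, 4.61.

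Chemokine genes were among those higher in the knockout. All 3 CXCR3 ligands were higher: Cxcl9 (chr5:92321331-92328079) had 7.92 FPKM in the BALB/c control, 145 FPKM in its Rag2 knockout, 6.91 FPKM in the C57BL/6J control and 123 FPKM in its IL-10 knockout. Cxcl10 had 134, 639, 324 and 1153 FPKM in the same order, and Cxcl11 0.0727 FPKM, 6.96 FPKM, 0 and 1.37 FPKM. These ligands attract activated T and NK cells. Of 6 genes of the neutrophil-attracting list 5 were higher, and the sixth, Csf3, had 2.34 and 5.09 FPKM. Cxcl5 went from 10.04 FPKM to 152 FPKM, and Cxcl1, already abundant at 1607 FPKM, to 3675 FPKM. Of 18 other chemokines 11 were higher (median 1.13), with the monocyte chemokines Ccl2 at 255 and 1134 FPKM and Ccl7 at 113 and 751 FPKM. Cxcl12, which retains leukocytes in tissue, had 920 and 1108 FPKM.

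Inflammatory cytokines and acute-phase genes followed. Of 18 compared cytokines 13 were higher and none lower (median 1.24). Il1b had 30.6 FPKM in the BALB/c control, 236 FPKM in its Rag2 knockout, 32.3 FPKM in the C57BL/6J control and 511 FPKM in its IL-10 knockout. Il1a went from 2.14 FPKM to 23.8 FPKM, Tnf from 1.85 FPKM to 14.1 FPKM and Lif from 5.27 FPKM to 36.3 FPKM. Il6 had 424 and 958 FPKM. Inhibitors were higher alongside their ligands: Il1rn, the IL-1 receptor antagonist, went from 8.61 FPKM to 48.7 FPKM and Il18bp, which neutralises IL-18, from 2.44 FPKM to 45.8 FPKM. Of 14 acute-phase genes 13 were higher (median 2.24). Saa3, a serum amyloid A made by stroma and macrophages (chr7:46711998-46719615), had 12.1 FPKM in the BALB/c control, 1013 FPKM in its Rag2 knockout, 13.4 FPKM in the C57BL/6J control and 1538 FPKM in its IL-10 knockout. Its log2 difference of 6.27 rests on about 44 and 3598 fragments. Il10 had 3.38 and 7.04 FPKM in the BALB/c pair, and its receptor gene Il10ra 2.08 and 5.37 FPKM. The Il10 transcript was not absent from the C57BL/6J knockout of that gene, where it reached 129.9 FPKM against 3.33 FPKM in the control. Which part of Il10 these fragments came from cannot be seen in a whole-gene value.

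Antimicrobial and complement genes were among those furthest apart. Reg3b and Reg3g, lectins that epithelium secretes against bacteria, had 0.364 and 0.177 FPKM in the control and 120 and 50.3 FPKM in the Rag2 knockout; the wild-type values are about 2 and 1 fragments. Pla2g2a, a secreted phospholipase that kills bacteria (chr4:138831857-138835189), had 40.0 FPKM in the Rag2 knockout against a listed 0 in its control, and 0.195 and 6.09 FPKM in the C57BL/6J pair. C57BL/6 mice are known to carry a broken copy of this gene. Of 24 complement genes 9 were higher and 1 lower (median 0.60). C3 went from 328 FPKM to 1764 FPKM and Cfb, which forms the alternative convertase with it, from 32.3 FPKM to 440 FPKM. The C1q genes of macrophages, C1qa, C1qb and C1qc, lay between 0.52 and 0.69. Cd59a, which blocks the membrane attack complex, was the lower gene, at 5.82 and 2.16 FPKM. Acod1 (listed as Irg1), which makes itaconate, went from 0.716 FPKM to 29.1 FPKM, and of the cell death list Apol6 went from 1.65 FPKM to 74.4 FPKM and Mlkl, the effector of necroptosis, from 5.90 FPKM to 27.1 FPKM. Epithelial and myeloid marker sums were higher in the same library, as given above.

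**Figure D5:**
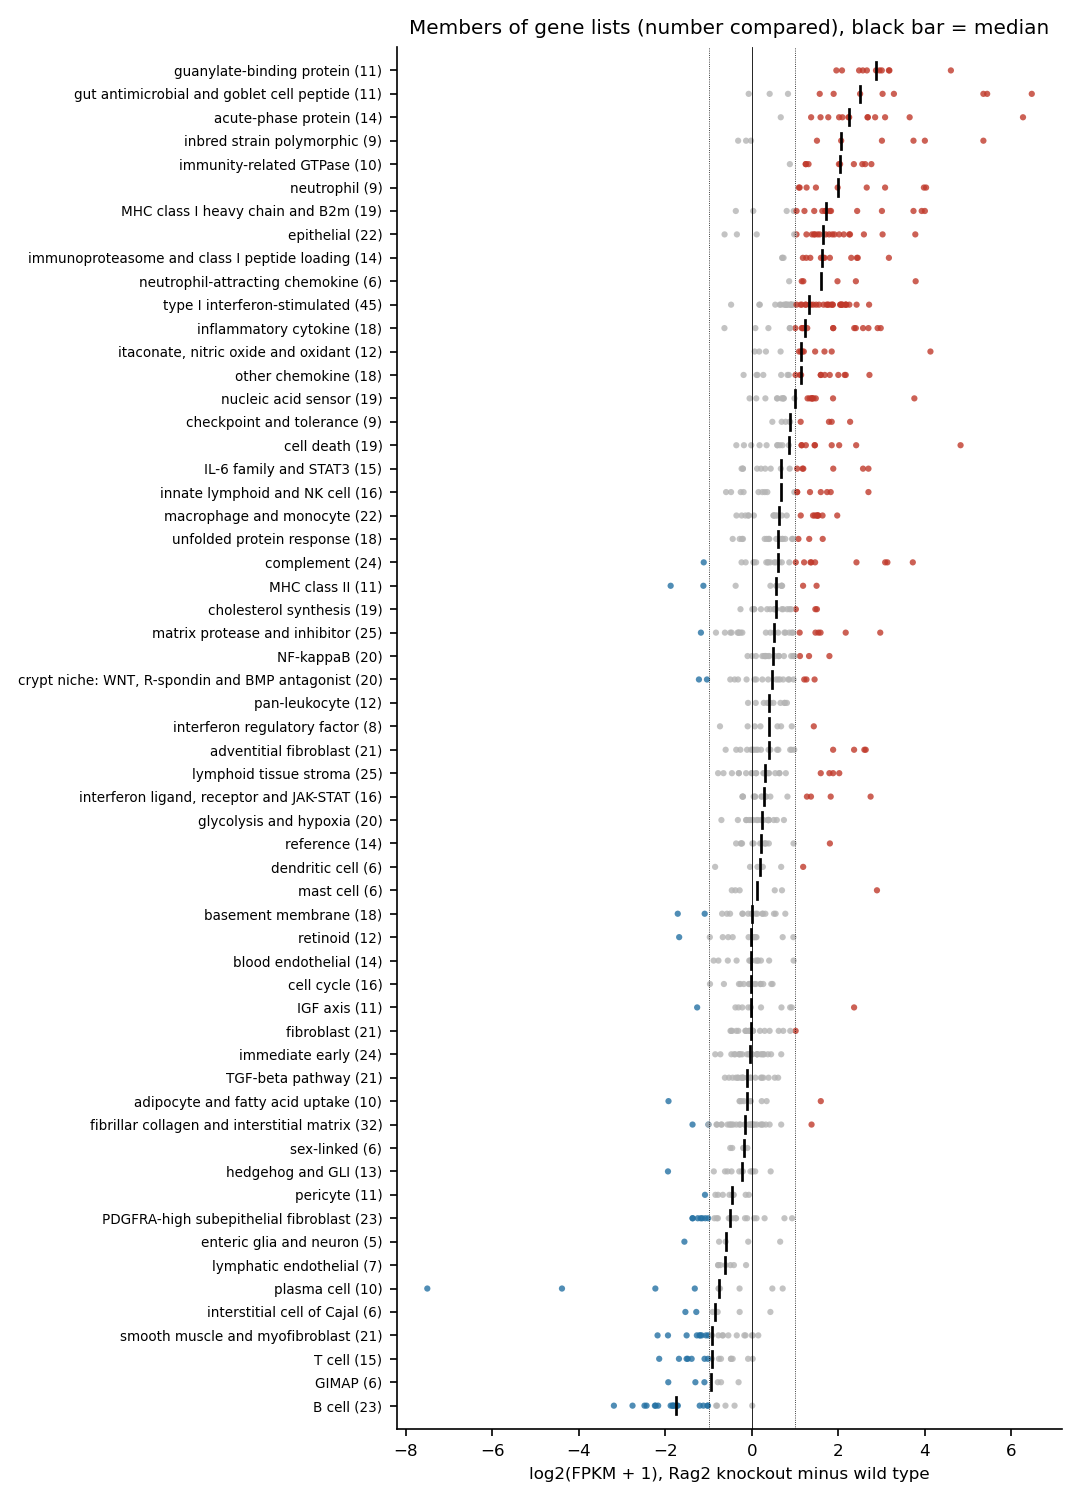
Each point is a compared member of a gene list, placed by its difference in log2(FPKM + 1), Rag2 knockout minus wild type; black bars are list medians and dotted lines mark 2-fold. Lists of interferon, antimicrobial and acute-phase genes lie to the right, with a median of 2.87 for the guanylate-binding proteins, and the B cell list lies furthest to the left, at -1.76.

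Stromal genes divided by type. Ly6a and Ly6c1, surface proteins of adventitial fibroblasts that interferon also induces, were among the abundant genes that were higher. Ly6a (chr15:74994877-74998031) had 475 FPKM in the BALB/c control, 2894 FPKM in its Rag2 knockout, 468 FPKM in the C57BL/6J control and 1754 FPKM in its IL-10 knockout, and Ly6c1 had 141, 882, 106 and 530 FPKM. Other adventitial genes were not higher with them: Pi16 had 132 and 133 FPKM, Cd34 314 and 346 FPKM, and of the 21 compared only Ly6a, Ly6c1, Igfbp5 and Il33 were higher. Igfbp5, which binds insulin-like growth factors (chr1:72858065-72874865), went from 133 FPKM to 689 FPKM, beside 185 and 247 FPKM in the C57BL/6J pair. Timp3, an inhibitor of metalloproteinases, had 256 FPKM in the BALB/c control, 748 FPKM in its Rag2 knockout, 248 FPKM in the C57BL/6J control and 178 FPKM in its IL-10 knockout. For both genes the Rag2 knockout was the highest of the 4 libraries, and for Timp3 the IL-10 knockout was the lowest.

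Genes that remodel matrix or organise lymphoid tissue were higher in part. Of 25 protease and inhibitor genes 6 were higher and 1 lower (median 0.52), beside 4.28% and 1.83% of all genes. Mmp3, stromelysin, went from 11.9 FPKM to 100 FPKM and Timp1 (chrX:20870166-20874737) from 57.1 FPKM to 261 FPKM. Mmp11 was the lower gene, at 70.4 and 30.6 FPKM. Of 25 genes of lymphoid tissue stroma 4 were higher: Bst1 (0.283 and 4.21 FPKM), Il33 (11.6 and 45.2 FPKM), the adhesion molecule Vcam1 (75.1 and 263 FPKM) and Cxcl13 (73.1 and 223 FPKM), the chemokine that draws B cells to follicles. Cxcl13 was thus higher in the library whose B cell genes were lower. Ccl21a, a chemokine of lymphatic vessels, had 80.7 and 46.6 FPKM, and none of 7 lymphatic genes was 2-fold apart (median -0.61).

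Of 20 compared genes of the crypt niche list (WNT, R-spondin and BMP antagonist genes), 3 were higher, 2 lower and 15 within 2-fold (median 0.47). Over all genes 4.28% were higher and 1.83% lower. Grem1, which blocks bone morphogenetic proteins (BMPs) at the crypt base, had 84.3 FPKM in the BALB/c control, 197 FPKM in its Rag2 knockout, 130 FPKM in the C57BL/6J control and 323 FPKM in its IL-10 knockout. Rspo1, a WNT amplifier, went from 0.986 FPKM to 4.44 FPKM, and the WNT antagonist Sfrp4 from 9.57 FPKM to 24.4 FPKM. Wif1 and Dkk2, also WNT antagonists, were lower, at 22.03 and 8.87 FPKM and at 1.23 and 0.0884 FPKM. Of 23 genes of the PDGFRA-high fibroblasts beneath the epithelium, which make BMPs and WNT5A, 7 were lower and none higher (median -0.50). Among them Bmp5 had 118 FPKM in the BALB/c control, 58.2 FPKM in its Rag2 knockout, 160 FPKM in the C57BL/6J control and 27.2 FPKM in its IL-10 knockout, and Pcsk6, a protease that processes growth factors, had 103, 39.5, 105 and 21.3 FPKM. Bmp4 was close to equal, at 286 and 266 FPKM.

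Smooth muscle and myofibroblast genes were lower in part. Of 21 compared, 9 were lower and none higher (median -0.92, summed FPKM 1710 and 1120). Myh11, the smooth muscle myosin heavy chain (chr16:14194527-14292188), had 93.7 FPKM in the BALB/c control, 32.3 FPKM in its Rag2 knockout, 69.8 FPKM in the C57BL/6J control and 23.4 FPKM in its IL-10 knockout. Hhip, a hedgehog inhibitor, had 24.2, 5.58, 18.6 and 4.33 FPKM in the same order, and the calcium store protein gene Casq2 8.51, 1.10, 32.0 and 2.17 FPKM. In all 3, each knockout was below its own wild type. Acta2, the smooth muscle actin, lay within 2-fold at 273 and 170 FPKM, and Des, desmin, at 18.9 and 17.1 FPKM. Genes of interstitial cells of Cajal, pacemakers of the gut, had 2 of 6 lower, Ano1 (7.28 and 1.86 FPKM) and Edn3 (4.62 and 1.31 FPKM). With both libraries scaled to an equal FPKM sum without small RNA rows, 4 of them were lower, and with a pseudocount of 5 none was. Stmn2, a neuronal gene, had 47.9 FPKM in the BALB/c control, 15.6 FPKM in its Rag2 knockout, 31.1 FPKM in the C57BL/6J control and 1.40 FPKM in its IL-10 knockout.

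Of 32 fibrillar and interstitial matrix genes 29 lay within 2-fold (median -0.16). Vcan, a large proteoglycan, was higher (38.6 and 102 FPKM), and Tnc, tenascin, was lower (73.7 and 27.9 FPKM). Fbn2 was lower too, at 2.01 and 0.502 FPKM. Of 18 basement membrane genes 2 were lower, the collagen chains Col4a5 and Col4a6, beside 1.83% of all genes. Single genes of other stromal lists were apart. Igfbp3 (chr11:7206086-7215498) had 754 FPKM in the BALB/c control, 314 FPKM in its Rag2 knockout, 850 FPKM in the C57BL/6J control and 127 FPKM in its IL-10 knockout. Of 12 retinoid genes 1 was lower and none higher (median -0.01), and of 10 genes of adipocytes and fatty acid uptake 1 was higher and 1 lower (median -0.11). Over all genes 4.28% were higher and 1.83% lower, so a count of 1 in lists this small says little about the lists. Aldh1a1, which makes retinoic acid (chr19:20492583-20643463), had 98.6, 30.1, 85.7 and 20.2 FPKM in the order used for Igfbp3. The fatty acid transporter Cd36 (chr5:17781690-17888959) had 40.9, 10.02, 28.7 and 7.01 FPKM. Lpl, the lipoprotein lipase, ran the other way, at 32.1 and 99.2 FPKM. Adamdec1, a protease abundant in gut stroma, had 2944 FPKM in the control and 1545 FPKM in the Rag2 knockout, but 3260 and 3013 FPKM in the C57BL/6J pair. Gsn, gelsolin, had the largest loss in FPKM, from 9889 to 7710, and lay within 2-fold.

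Several groups of basic cell functions lay within 2-fold. None of 24 immediate early genes, which respond to cell dissociation (median -0.03), of 16 cell cycle genes or of 20 glycolysis genes was 2-fold apart. Of 70 cytosolic ribosomal protein genes 2 were lower and none higher, with a median of -0.30 and 59 below 0, and of 73 respiratory chain genes none was apart, with a median of 0.22. Of 18 genes of the unfolded protein response 3 were higher and none lower (median 0.61, with 14 above 0): Sdf2l1 (8.46 and 28.5 FPKM), Asns (2.74 and 8.40 FPKM) and Pdia6 (81.2 and 172 FPKM). In a cholesterol synthesis list of 19 genes 3 were higher and none lower (median 0.55, with 18 above 0). The shares over all genes were 4.28% higher and 1.83% lower. For Fdps, an enzyme of that pathway, the wild-type library stood apart, with 1.83 FPKM in the control and 7.05, 8.93 and 9.06 FPKM in the other 3 libraries. Serpinh1, the collagen chaperone, was likewise lowest in the control, with 339 FPKM in the control and 732, 857 and 798 FPKM in the others. Serpinh1 was chosen after its values were seen.

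The genes next to Rag2 on chromosome 2 lay within 2-fold. Within 2 Mb on either side of Rag2, 13 genes were compared and none was 2-fold apart (median -0.33). Within 10 Mb, 3 of 65 (4.62%) were apart, and within 20 Mb 14 of 188 (7.45%), beside 6.11% of all compared genes. The same counts in the C57BL/6J pair, which shares no library with this one, were 1278 higher (10%) and 465 lower (3.65%) of 12732 genes, and the wild types of both strains were 2-fold apart in 453 of 12231 genes (3.70%). The B cell list had a median of -1.76 in the Rag2 comparison and 2.29 in the IL-10 comparison, and the GBP list 2.87 and 2.22. The difference between the comparisons was not tested, and strain, colony, sex and genotype cannot be told apart in it.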

How the data were processed

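Polyadenylated RNA of sorted podoplanin-positive colonic stroma was sequenced in 4 libraries, 1 per group, with a TruSeq stranded kit per the labels' protocols. The authors deposited FPKM for each gene. Cuffdiff 2.2.1, TopHat2 2.1.1 with Bowtie2 2.2.8, SAMtools 0.1.18 and build mm10 stand in the submitters' processing notes; annotation, strand setting and library scaling are not given in the sources used. FPKM were compared as log2(FPKM + 1), a pseudocount of 1 that understates the difference of low genes, in Python 3.11.15 with pandas 2.3.3. Genes below 1 FPKM in both libraries and small RNA rows were left out. A gene low in 1 library could pass through the other alone, so list counts lean toward genes apart. With 1 library per group no test, p-value or standard error was computed. The counting was tested on simulated data.

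Depth was estimated from the steps between low FPKM of genes with 1 transcript: 77.2% to 79.4% of the values lay within 0.1 of a whole fragment. A count of 3 fragments on 2000 nt is 0.169 FPKM in wild type and 0.174 in the knockout. Intervals cover counting error only. For genes with 1 transcript, they left out equal levels in 285 of 287 higher and 103 of 104 lower genes. These genes were called by the same values, so the selection largely fixes these counts. They are no test of the calls and say nothing of variation between animals.

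The gene lists (61, with 8 added after values were seen: ribosomal, respiratory chain, translation, iron, Ly6, APOL and PARP, prostaglandin, IL-1 and IL-18) and the members were chosen with earlier results of these data known. Of 1084 list members 1077 were found, some under older symbols (2274 rows matched through RefSeq synonyms). The rule for named genes took genes that reached 5 FPKM: the 25 highest and 25 lowest differences, the 12 largest gains and losses, up to 6 members per list or all of a list of 12 or fewer, the sort markers, the recombinase genes and neighbours of Rag2. Members named to show that a list was not uniform, and the genes picked to show motifs or neighbour runs, were chosen after their values were seen. Positions and sequences are from RefSeq GRCm38.p6. The promoter motif patterns were consensus strings set by hand as search parameters, not derived from the deposited files. Some genes are counted in the lists but not reported here by name.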

Additional observations from a re-analysis of the deposited data

Results flagged for a closer look

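Many lymphocyte genes ran in opposite directions in the 2 knockouts. For 30 named genes or list members, the Rag2 knockout was at least 2-fold below its wild type and the IL-10 knockout at least 2-fold above its own. Only such genes were searched, and many are lymphocyte markers, so the share of opposite genes over all genes is not known. Over all genes compared, 1.83% were lower in the Rag2 comparison and 10% higher in the IL-10 comparison. The comparisons share no library, each has 1 library per side, and the difference between them was not tested. In the IL-10 comparison all 12 pan-leukocyte genes were higher as well (median 2.91, summed FPKM 76.6 and 734). The higher side is therefore not particular to lymphocyte genes. Among these 30, the largest difference in the Rag2 comparison was that of the plasma cell gene Mzb1, at -4.39. The B cell gene Pou2af1 was at -3.19, and the plasma cell gene Derl3 was at -2.23. Mzb1 and Pou2af1 were listed at 0 in the Rag2 knockout. Further B cell genes were Cd79a at -2.76, Cd79b at -2.48, Fcer2a at -2.24, Fcmr at -2.22, Fcrla at -2.17, Ms4a1 at -1.83, Vpreb3 at -1.83, Tnfrsf13c at -1.73, Cxcr5 at -1.71 and Cd37 at -1.01. Signalling and transcription genes of the same cells were Blk at -1.76, Pax5 at -1.20 and Bank1 at -1.03, and the class II inhibitor genes were H2-Ob at -1.88 and H2-Oa at -1.12. Ly6d was at -1.80 and P2ry10 at -1.75. Among T cell genes the values were -2.14 for Cd2, -1.68 for Cd3g, -1.51 for Ctla4, -1.48 for Cd28, -1.39 for Lat, -1.09 for Cd5 and -1.01 for Cd27. The GIMAP genes had -1.93 for Gimap3, -1.30 for Gimap6 and -1.09 for Gimap1.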

How the results depend on the processing

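Counts of genes apart moved with the settings. None of 72 named genes reversed its direction under the 5 settings of pseudocount and scaling tried on them. Most were picked for large differences in these data, so a reversal was unlikely. The log2 difference moved by more than 0.43 in 41 of the 72 with a pseudocount of 5 and in 29 with 0.1. It did so in 21 with equal-sum scaling, and in 0 with the median ratio set to 0 or upper-quartile scaling. With a pseudocount of 0.1 the lower genes numbered 505, and with a pseudocount of 5 the counts were 260 higher and 45 lower. Asking for 5 FPKM in either library left 136 lower genes. Scaling each library to an equal sum without small RNA rows gave 634 lower genes and raised the lower members of the T cell list from 7 to 11, of the plasma cell list from 4 to 7 and of the pericyte list from 1 to 4. That setting also changed the level of the filter and of the pseudocount. With the pseudocount of 5, which hides low genes, the lower B cell genes went from 18 to 3 and the lower T cell genes from 7 to 0, and the higher epithelial genes from 18 to 10. A 4-fold threshold gave 134 higher and 15 lower, and a 1.5-fold threshold 1248 and 914. Without a filter, with the mean of the 4 libraries as filter, with the median ratio set to 0, with upper-quartile scaling and with small RNA rows kept, both counts stayed within 1.5 times the counts reported, between 480 and 545 higher and between 215 and 251 lower. The cause of these shifts was not tested. No paired analysis was possible because each group has 1 library and the comparison comes from no test, and for the same reason no library could be left out. At this depth, a log2 ratio of FPKM, with no pseudocount, of under about 0.97 lies within the counting interval at 1 FPKM on a transcript of 2000 nt.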

Other observations

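Some genes far from the diagonal belong to none of the groups described. Chl1, a cell adhesion molecule of neurons, had 1.501 FPKM in the BALB/c control, 55.6 FPKM in its Rag2 knockout, 1.38 FPKM in the C57BL/6J control and 34.0 FPKM in its IL-10 knockout. Its difference of 4.50 rests on about 108 and 3888 fragments, and both knockouts lay far above both wild types. Of 16 compared genes of an iron and metallothionein list, added after values were seen, 5 were higher and 1 lower, beside 4.28% and 1.83% of all genes. Its higher members other than Slc39a14 also belong to the acute-phase list, so they are counted there already. Slc39a14, a zinc and iron importer, went from 9.09 FPKM to 44.0 FPKM, and Cybrd1, a ferric reductase and the lower member, had 9.30 FPKM in the control and 2.31 FPKM in the knockout.

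Among the lower genes outside the lymphocyte lists, Emid1 had 62.4 FPKM in the BALB/c control, 14.2 FPKM in its Rag2 knockout, 44.9 FPKM in the C57BL/6J control and 11.4 FPKM in its IL-10 knockout. Agt, the precursor of angiotensin, had 31.7, 7.90, 43.7 and 8.10 FPKM in the same order, and Tubb4a, a tubulin, 31.8, 8.63, 51.7 and 7.78 FPKM. In each of these 3 genes the knockouts of both strains were below both wild types. Fxyd6, a regulator of the sodium pump, did not share that order, with 32.9 and 9.24 FPKM in BALB/c and 38.8 and 49.0 FPKM in C57BL/6J.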
